A study of Homo sapiens with 2 samples.

Results

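The genes described here are 6 granins and granin-like proteins (CHGA, CHGB, SCG2, SCG3, SCG5 and VGF) and 4 enzymes of peptide processing (PCSK1, PCSK2, CPE and PAM). These 10 genes were taken by symbol from the 61487 genes listed for both libraries, and all 10 were found. Serotonin neurons (SNs) were differentiated from H9 (WA09) human embryonic stem cells, an established line, that carry EGFP at TPH2, the gene of the serotonin-synthesising enzyme of neurons, and the EGFP-positive cells were sorted at day 42. The WT-labelled library came from cells with the TPH2-EGFP knock-in alone. The FKO-labelled library came from cells with the same knock-in and a FOXA2 knockout, made per the study's methods on a line picked as a drug-resistant clone with a frameshift in FOXA2. Each genotype gave 1 library of single-cell RNA sequencing, so no test between genotypes was possible, and genotype, clone, culture and library cannot be told apart. The study used different purmorphamine doses for WT and FKO cells in other cultures, and the dose for the sorted ones is not given in the sources used here.

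Granins are acidic proteins that aggregate in the trans-Golgi network and take part in the making of dense-core vesicles, from which neurons and endocrine cells release peptides and also monoamines. Peptide precursors that enter these vesicles are cut by the prohormone convertases PCSK1 and PCSK2, trimmed at their new C-terminal ends by carboxypeptidase E (CPE) and, in many peptides, amidated by PAM. Several granins, such as CHGA, CHGB, SCG2 and VGF, are themselves cut into peptides by the same enzymes, and VGF, SCG2 and PCSK1 are known as genes that respond to neuronal activity and cyclic AMP.

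The WT-labelled library held 11052 barcodes and the FKO-labelled library 8806. After filtering on depth, mitochondrial share and doublet score, 5721 cells (51.8%) with a median of 12442 unique molecular identifiers (UMIs, 1 per captured transcript) and 6980 cells (79.3%) with a median of 6925.5 UMIs were kept. The mitochondrial limit removed more of the WT-labelled barcodes (10610 to 6385) than of the FKO-labelled ones (8588 to 7573), and the median mitochondrial share of kept cells was 7.84% and 5.32%. The libraries shared 5 barcodes among the kept cells. Levels are given as CPM, the UMIs of a gene divided by all UMIs of the pooled cells (75898288 and 58063063) and scaled in the usual way. All 9 serotonergic markers were detected in both libraries, but so were all listed markers of other cell types, so detection alone does not tell the cell type. FEV, the serotonergic transcription factor, had a UMI in 97.9% and 91.0% of cells, which goes with the labelled cell type. The targeted gene went against its label, with 312 FOXA2 UMIs (4.11 CPM) in the WT-labelled library and 1295 (22.3 CPM) in the FKO-labelled library. FOXA1 was likewise higher in the FKO-labelled library (2.56 and 8.73 CPM), while the other floor plate markers were lower there, SHH at 6.14 and 3.07 CPM and CORIN at 3.43 and 0.913 CPM. UMIs of 3' ends cannot reveal a frameshift, so every direction below rests on the labels. Intervals are exact, at 95%, and hold counting error alone. TPH2, the gene of the sorted reporter, stood at 197 and 162 CPM and had a UMI in 71.5% and 52.7% of cells, at unlike depth. Gene positions are the spans of GENCODE release 29 (GRCh38).

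CHGA, VGF and PCSK1 share a sequence feature near their start. The cyclic AMP response element, whose full palindrome is TGACGTCA, was searched on both strands of the promoter windows of RefSeq (GRCh38.p14), which run from 250 bases before to 50 bases after each start, and 8 of the 10 genes, all but CHGB and SCG2, had an entry, with 12 windows in all. The palindrome stood in 3 of the 12, those of CHGA and VGF and 1 of the 2 of PCSK1, and in 1.85% of all 35116 windows. In each it lay within 100 bases of the start: 54 to 47 bases before it in CHGA, 79 to 72 in VGF and 77 to 70 in PCSK1. The shorter motif TGACG, which the palindrome contains, stood in 9 of the 12 windows and in 24.6% of all windows. A match describes letters in a window and is not evidence of binding. The palindrome of VGF lies outside the GENCODE span of its gene, and those of CHGA and PCSK1 lie within theirs, which start earlier than the RefSeq starts. The lines below give 60 bases around the palindrome, which is in capitals, on the strand of the gene, since VGF and PCSK1 are compared cell by cell further on. They are chr14:92923070-92923129 (plus strand), chr7:101165615-101165674 (minus strand) and chr5:96433292-96433351 (minus strand).
CHGA: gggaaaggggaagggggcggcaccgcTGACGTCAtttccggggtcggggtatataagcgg
VGF: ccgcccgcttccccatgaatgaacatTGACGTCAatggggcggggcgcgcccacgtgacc
PCSK1: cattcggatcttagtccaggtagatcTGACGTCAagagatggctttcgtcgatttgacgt

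The 10 genes together took 0.285% of all UMIs in the WT-labelled library and 0.395% in the FKO-labelled library. CHGB (chromogranin B, ENSG00000089199, chr20:5911430-5925361) led in both, with 36.6% and 56.6% of the UMIs of the 10 genes. It stood at rank 137 among all genes in the WT-labelled library and at rank 30 in the FKO-labelled library. The order below CHGB in the WT-labelled library was SCG2, VGF, CPE, SCG3, PCSK1, CHGA, PAM, PCSK2 and SCG5. In the FKO-labelled library VGF came after PCSK1, SCG3 and CPE, and PAM came before CHGA. These levels compare captured 3' ends, which are not divided by gene length and differ in how well they are captured.

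**Figure D1:**
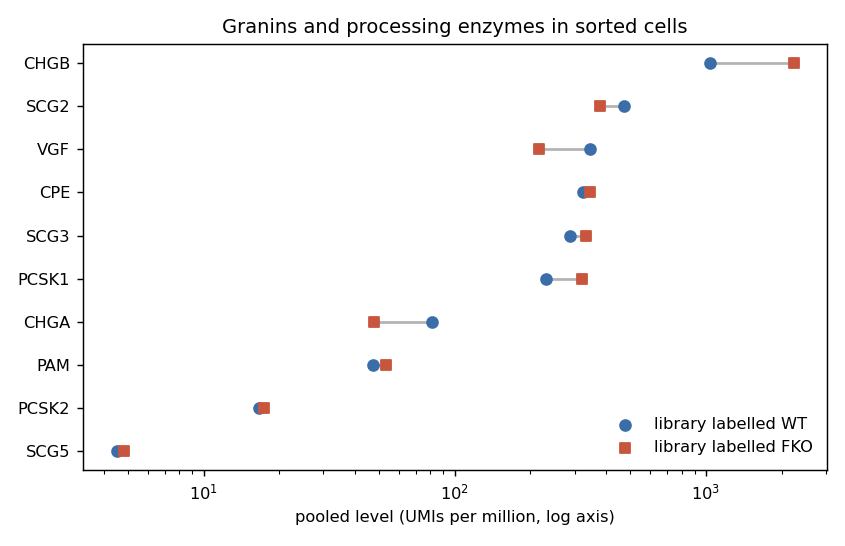
Pooled level of each gene in CPM on a log axis, circles for the WT-labelled library and squares for the FKO-labelled library, 1 library each and hence without error bars. CHGB stands above all others in both libraries (1042 and 2232), and SCG5 is lowest (4.51 and 4.81).

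The ratios between the libraries were read against all 9669 genes with at least 10 CPM in either library, which had a median log2 ratio (FKO over WT) of 0.47. For each of the 10 genes the ratio is given first as it stands and then less this median. CHGB had 79049 UMIs (1042 CPM) in the WT-labelled library against 129576 (2232 CPM) in the FKO-labelled one, a log2 ratio of 1.10 (1.09 to 1.11) and of 0.63 less the median. CHGA (ENSG00000100604, chr14:92923080-92935293), chromogranin A, the granin best known from adrenal chromaffin cells, had 6151 UMIs (81.0 CPM) and 2768 UMIs (47.7 CPM), a log2 ratio of -0.77 (-0.83 to -0.70) and of -1.24 less the median. The 2 chromogranins thus stood on opposite sides of the median, and both kept their side in each of 4 depth groups of cells, where CHGB lay 0.32 to 0.83 above the median of that depth group and CHGA between -1.45 and -1.09.

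VGF (ENSG00000128564, chr7:101162509-101165593), the precursor of peptides such as TLQP-21, had 26110 UMIs (344 CPM) in the WT-labelled library against 12573 (217 CPM) in the FKO-labelled one, a log2 ratio of -0.67 (-0.70 to -0.64) and of -1.14 less the median. SCG2 (ENSG00000171951, chr2:223596940-223602503), or secretogranin II, the precursor of secretoneurin, had 35870 UMIs (473 CPM) and 21977 UMIs (379 CPM), with a log2 ratio of -0.32 (-0.34 to -0.30) and of -0.79 less the median. Both lay below the median of all genes at every depth, but by amounts that moved with depth. Among cells of 5000 to under 10000 UMIs VGF stood at 176 and 181 CPM, a log2 ratio of 0.04, and SCG2 at 312 and 349 CPM, a log2 ratio of 0.16. Less the median of that depth these were -0.43 and -0.30. Within the WT-labelled library, VGF was at 326, 176, 365 and 393 CPM in cells of 1000 to under 5000, 5000 to under 10000, 10000 to under 20000 and at least 20000 UMIs, and within the FKO-labelled library at 130, 181, 279 and 274 CPM. The part of depth in these ratios was not tested.

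SCG3 (ENSG00000104112, chr15:51681353-51721031), which links granin aggregates to the vesicle membrane and to CPE, was close between the libraries, at 287 CPM (21793 UMIs) and 332 CPM (19251 UMIs), with a log2 ratio of 0.21 (0.18 to 0.24) and of -0.27 less the median. SCG5 (ENSG00000166922, chr15:32641676-32697098), or 7B2, the chaperone of PCSK2, was the rarest of the genes, with 342 UMIs (4.51 CPM) and 279 UMIs (4.81 CPM). Its log2 ratio of 0.09 (-0.14 to 0.33), or -0.38 less the median, could not be told from 0 at this depth. The SCG5 counts are uncertain, since the listed readthrough gene ARHGAP11A-SCG5 (3 and 2 UMIs) spans SCG5 on chromosome 15 in RefSeq and reads that fit both may not have been counted for either.

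Of the convertases, PCSK1 (ENSG00000175426, chr5:96390415-96434143) was by far the more abundant in both libraries. It had 17483 UMIs (230.3 CPM) in the WT-labelled library against 18612 (321 CPM) in the FKO-labelled one, a log2 ratio of 0.48 (0.45 to 0.51), which lay at the median of all genes. Among cells of 5000 to under 10000 UMIs the values were 138 and 304 CPM, and the ratio stood 0.66 above the median of that depth, against -0.01 in cells of at least 20000 UMIs. PCSK2 (ENSG00000125851, chr20:17226107-17484578) had 1267 UMIs (16.7 CPM) and 1008 UMIs (17.4 CPM), a log2 ratio of 0.06 (-0.06 to 0.18), so no difference on the CPM scale was detectable at this depth, and the ratio was -0.42 less the median. CPE (ENSG00000109472, chr4:165361194-165498320) was at 324 CPM (24582 UMIs) and 344 CPM (19980 UMIs), with a log2 ratio of 0.09 (0.06 to 0.11) and of -0.39 less the median. PAM (ENSG00000145730, chr5:102753981-103031105), the only enzyme known to amidate peptides, was at 47.3 CPM (3593 UMIs) and 53.2 CPM (3088 UMIs), with a log2 ratio of 0.17 (0.10 to 0.24) and of -0.31 less the median. For SCG3, CPE and PAM the sign of the ratio thus depends on whether the median of all genes is taken off.

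Among the 9 genes with at least 10 CPM, which all had it in both libraries, 7 lay below the median of all genes, with a median log2 ratio of 0.09, or -0.39 less that of all genes. None was at least 2-fold higher relative to the median, against 5.66% of all genes, although CHGB passed with a mitochondrial limit of 5% (1.04, or 1.51 as it stands), and 2, CHGA and VGF, were at least 2-fold lower, against 9.57% of all genes. VGF passed this fold over all kept cells but not in cells of at least 5000 UMIs taken by depth group, where it lay between -0.99 and -0.43. Markers of other cells also differed between the libraries: the summed level of 6 mesenchymal markers was 37.4 CPM in the WT-labelled library and 229 in the FKO-labelled library, and that of 5 cycling markers 45.3 and 72.3 CPM, with every marker detected in both. COL1A1, COL1A2, COL3A1 and PDGFRA had log2 ratios of 5.30, 4.95, 1.77 and 4.44, while LUM and DCN, at 0.30 and 0.37, lay below the all-gene median. Of the cycling markers, MKI67 had 1.59 and NUSAP1 -0.97. TOP2A, CENPF and TPX2 lay near the all-gene median, at 0.52, 0.56 and 0.56. The part of the mitochondrial share in the ratios was not tested beyond the limit of 5% and one of 20%, at which CHGB had a log2 ratio of 1.07 and CHGA one of -0.93. In FEV-positive cells alone the log2 ratios of CHGB, SCG2 and PCSK1 were 1.17, -0.30 and 0.53.

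**Figure D2:**
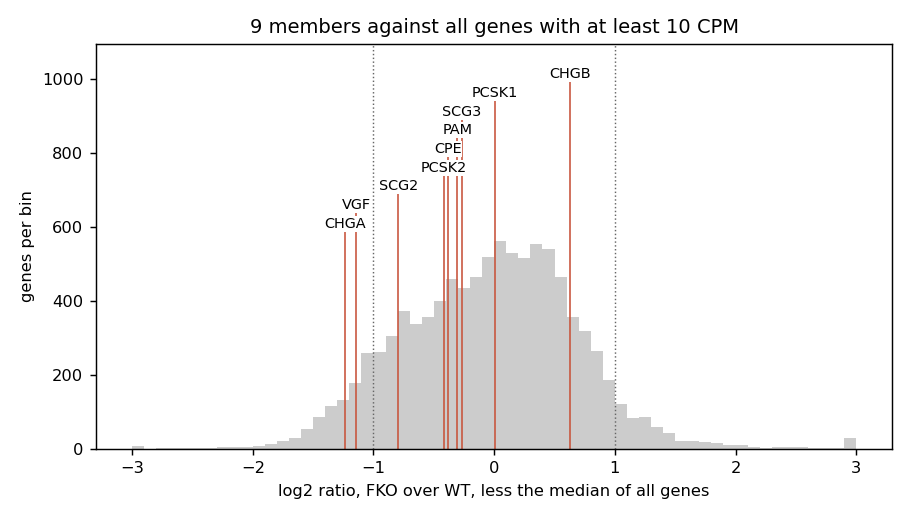
Histogram of log2 ratios (FKO over WT), with the all-gene median of 0.47 taken off, for the 9669 genes with at least 10 CPM in either library, with the 9 members that pass this level as vertical lines and values beyond 3 drawn in the end bins. Dotted lines mark 2-fold. CHGA (-1.24) and VGF (-1.14) lie beyond the lower line and CHGB (0.63) lies farthest to the right.

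The other genes of the pathway did not move as 1 block, and their ratios are given as they stand, with the all-gene median of 0.47 not taken off. Of 12 other processing enzymes and inhibitors, 5 had at least 10 CPM, and 3 of the 5 exceeded the all-gene median. PCSK1N, or proSAAS, an inhibitor of PCSK1, was in the range of CHGB, at 1669 CPM in the WT-labelled library and 1330.3 CPM in the FKO-labelled library, a log2 ratio of -0.33. PCSK7, a convertase of the constitutive pathway, was at 17.6 and 58.2 CPM, a log2 ratio of 1.72, CPD, a carboxypeptidase of the Golgi, had a log2 ratio of 1.01, and the lysosomal protease CTSL one of -0.05.

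Of 14 dense-core vesicle genes, 9 had at least 10 CPM in both libraries, and 4 of the 9 exceeded the all-gene median. CADPS2, SYT7, BAIAP3 and HID1 reached 10 CPM in the FKO-labelled library alone, where they had to be higher. The highest ratios, over genes that reached the level in either library, were those of the calcium sensor SYT7 (1.93) and the priming factor CADPS (1.59), and the lowest RAB3A (-0.36) and PTPRN2 (0.06). All 5 genes of the signal peptidase, which removes the signal peptide of every secreted precursor, lay below the median of all genes, with a median log2 ratio of -0.43. They ran from SPCS1 (-0.62) and SEC11A (-0.44) to SPCS2 (-0.39) and SPCS3 (0.16).

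Of 5 genes that supply PAM with copper and ascorbate, only the copper chaperone ATOX1 had at least 10 CPM in both libraries, with a log2 ratio of -0.61. The other 4 reached that level in the FKO-labelled library alone, so their count above the median carries no weight. They include the ascorbate transporter SLC23A2 (1.40), the vesicle electron carrier CYB561 (1.34) and the copper pump ATP7A (0.83). Of 23 peptide precursors, 2 had at least 10 CPM in both libraries, TAC1 and NMU, while 3 reached it in the WT-labelled library alone and 2 in the FKO-labelled library alone. TAC1, the precursor of substance P, was at 331 and 1331 CPM (log2 ratio 2.01) and PENK at 0.935 and 19.5 CPM (4.38). GAL was at 25.2 and 0.758 CPM (-5.06) and NMU at 26.2 and 10.2 CPM (-1.36). PENK reached 10 CPM in the FKO-labelled library alone and GAL in the WT-labelled library alone, where each had to be higher.

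When each cell was thinned to 5000 UMIs, so that cells of both libraries were compared at 1 depth, CHGB had a UMI in 90.4% of 5534 cells of the WT-labelled library and in 93.6% of 5589 cells of the FKO-labelled library. This left out 187 and 1391 shallower cells. Among FEV-negative cells thinned alike, the share was 38.9% of 72 and 54.8% of 352 cells, against 72.2% and 61.9% for CPE. At 2000 UMIs per cell, where the share is less close to its ceiling, CHGB was in 74.5% of 5678 and in 85.0% of 6864 cells, with 43 and 116 shallower cells left out. Among cells of 5000 to under 10000 UMIs the median was 4 CHGB UMIs per cell (10th to 90th percentile 0 to 11, highest 29) in 1252 cells labelled WT and 11 (1 to 26, highest 60) in 4056 cells labelled FKO. The variance of CHGB was 4.03 and 7.78 times its mean, the highest such values of the 10 genes. CHGB also had the highest mean (5.05 and 12.5 UMIs). Where cells differ in level this measure rises with the mean, so it does not rank genes or libraries of unlike level by spread.

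SCG3 and CPE spread least among the abundant members, with a variance of 1.05 and 1.17 times the mean for SCG3 and 1.22 and 1.21 for CPE, which is near the value of 1 that counting alone gives. SCG2 (2.35 and 2.58), VGF (1.84 and 1.90) and PCSK1 (1.63 and 1.91) lay above these. Their means, of 0.71 to 1.70 UMIs, were far below that of CHGB, so they are not ranked against it. After thinning to 5000 UMIs, over all depths, SCG2 had a UMI in 73.9% and 67.9% of cells, VGF in 65.4% and 51.7%, PCSK1 in 55.2% and 66.6% and CHGA in 30.3% and 19.6%. SCG5 had a UMI in 2.15% and 2.52% of cells.

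To ask which of the genes go with serotonergic identity, cells with at least 1 FEV UMI were set against cells with none, within each library and at like depth (5000 to under 10000 and 10000 to under 20000 UMIs). This gave 4926 FEV-positive and 66 FEV-negative cells in the WT-labelled library and 4983 and 350 in the FKO-labelled library. Cells of 1 library are not replicates, so no test was made, and a cell with no FEV UMI may still express FEV. The median log2 ratio of all genes was 0.07 in both libraries.

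CHGB differed most between these cells. It was at 1077 CPM in FEV-positive and 113 CPM in FEV-negative cells of the WT-labelled library, and at 2405 and 235 CPM in the FKO-labelled library, which is 9.50-fold and 10.2-fold, or log2 ratios of 3.25 and 3.36. With a UMI minimum of 2000 these were 2.91 and 2.61, and with a mitochondrial limit of 20% they were 2.73 and 3.38. PCSK1 came next, at 209 and 36.9 CPM, and at 342 and 76.1 CPM, which is 5.68-fold and 4.49-fold. The lower PCSK1 value rested on 230 UMIs in the FKO-labelled library but only 26 in the WT-labelled library. Between the depth groups the log2 ratio of PCSK1 ran from 1.49 to 3.10 in the WT-labelled library. In the FKO-labelled library it ran from 1.78 to 3.11.

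The other granins differed less between FEV-positive and FEV-negative cells. The log2 ratio was 1.71 and 0.79 for SCG2, 1.08 and 0.83 for VGF, 0.86 and 0.50 for CHGA and 0.61 and 0.67 for SCG3, in the WT-labelled and FKO-labelled libraries. PAM had 0.93 and 0.35. The value in the WT-labelled library rests on 17 UMIs in 13 FEV-negative cells and ran from 0.26 to 1.44 between the depth groups. CPE had -0.29 (323 CPM in FEV-positive and 394 in FEV-negative cells) in the WT-labelled library and 0.23 (343 and 291) in the FKO-labelled library. PCSK2 was lower in FEV-positive cells of both libraries, at 15.3 against 39.7 CPM (log2 ratio -1.37) and at 16.8 against 25.1 CPM (-0.58). The first of these PCSK2 values rests on 28 UMIs in 18 FEV-negative cells and ran from -2.42 to -0.18 between the depth groups, and in the FKO-labelled library the depth groups gave -0.96 and 0.33. SCG5 had 3 UMIs in the FEV-negative cells of each library, too few for a ratio to be read.

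Relative to the median of all genes, 4 of 9 members (CHGB, PCSK1, SCG2 and VGF) were at least 2-fold higher in FEV-positive cells of the WT-labelled library, against 4.99% of all genes, and 1 (PCSK2) was at least 2-fold lower, against 8.88%. In the FKO-labelled library these were 2 (CHGB and PCSK1), against 3.68%, and 0, against 11.9%. VGF passed only narrowly in the WT-labelled library and would not with doublets kept (log2 ratio 1.01, median of all genes 0.06) or with a mitochondrial limit of 20% (0.66, median 0.04). PAM did not pass there but would without depth groups (log2 ratio 1.09, median 0.07). Of the 9 genes, 7 were higher in FEV-positive cells of both libraries, against 43% of all 8702 genes read in both.

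**Figure D3:**
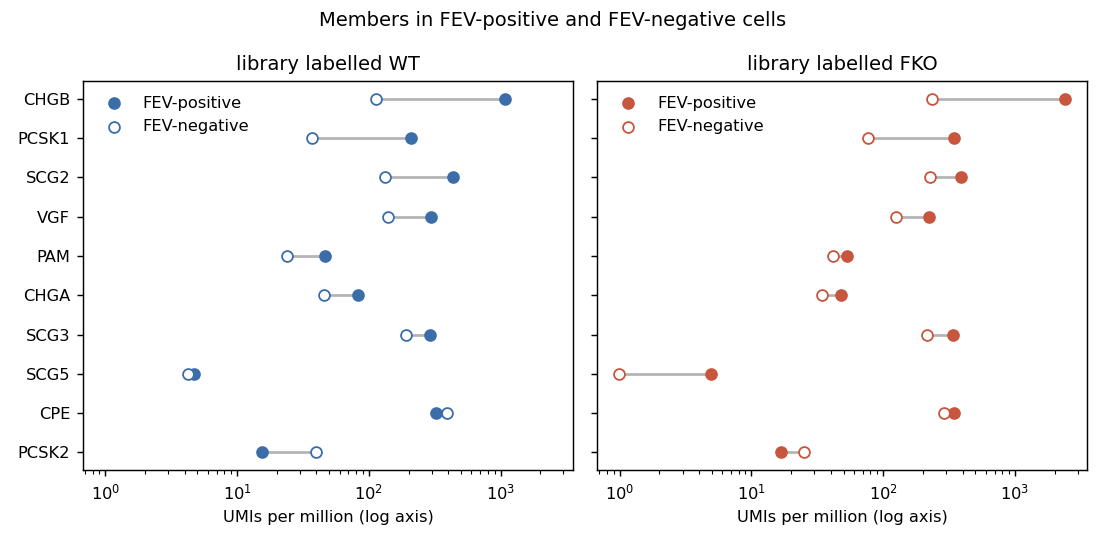
Level of each gene in CPM, on a log axis, in FEV-positive (filled) and FEV-negative (open) cells of the WT-labelled library (left) and of the FKO-labelled library (right), with FEV-positive levels standardised to the depths of the FEV-negative cells. CHGB (9.50-fold and 10.2-fold) and PCSK1 show wide gaps in both libraries, SCG5 rests on 3 FEV-negative UMIs in each, and PCSK2 lies the other way round.

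The FEV-negative cells were mixed. At least 2 of 5 neuronal markers were present in 92.4% of them in the WT-labelled library and in 84.6% in the FKO-labelled library. The summed level of these 5 markers was 3406 and 4498 CPM, against 5688 and 8596 CPM in FEV-positive cells. Log2 ratios of FEV-positive over FEV-negative cells were 0.80 and 0.92 for STMN2, 0.57 and 1.08 for DCX and 0.38 and 0.80 for SNAP25. TUBB3 had 0.32 and 0.62, and ELAVL4 0.14 and 0.15. Neuronal markers thus moved the same way as CHGA, SCG2, SCG3 and VGF, and their part in those ratios was not tested. The summed level of 4 progenitor markers was 3359 and 3914 CPM, against 694 and 868 CPM in FEV-positive cells. Most of these sums was VIM (2979 and 3459 CPM), which mesenchymal cells express too, and at least 2 of the 4 markers were in 59.1% and 56.6% of FEV-negative cells, against 56.3% and 29.8% of FEV-positive cells. Mesenchymal markers summed to 339 and 1539 CPM, against 19.0 and 143 CPM, with COL1A1 and PDGFRA at 0 in the 66 cells labelled WT, and cycling markers to 9.92 and 329 CPM, against 16.2 and 51.3 CPM, with MKI67, TOP2A and NUSAP1 at 0 in those 66 cells. Floor plate markers summed to 142 and 164 CPM, against 11.4 and 22.4 CPM. The summed level of 7 markers of other neuron classes was 105 and 105 CPM, against 21.5 and 19.7 CPM. Among them SLC17A6 had log2 ratios of -4.09 and -3.34, LHX1 -4.78 and -2.73 and GAD2 -4.02 and -3.62, while TH had 0.53 and 0.17. At least 2 of 9 serotonergic markers were in 28.8% and 19.7% of FEV-negative cells. Without cells that held UMIs of at least 2 of 3 collagen genes or 2 of 3 cycling genes, the log2 ratios of CHGB and PCSK1 in the FKO-labelled library were 3.08 and 1.81, those of SCG2 and VGF 0.42 and 0.45, and that of CHGA 0.14.

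A set of 78 cells of the FKO-labelled library, with UMIs of at least 2 of COL1A1, COL1A2 and COL3A1 and none of FEV, gave a reading of the genes in cells of another kind at about the same depth (median 7217.5 UMIs, against 7006.5 in FEV-positive cells). This set was chosen after values had been seen. CHGB stood there at 73.3 CPM (53.5 to 98.1, 45 UMIs), which is 3.10% of its level in FEV-positive cells. The share was 3.37% for CHGA, 4.61% for SCG2, 2.90% for SCG3, 3.66% for VGF and 1.93% for PCSK1, each from 1 to 11 UMIs, and SCG5 had 0 UMIs, which allows up to 6.01 CPM. CPE (98 UMIs) was instead at 46.1% of its level in FEV-positive cells, PAM (22 UMIs) at 66.6% and PCSK2 (6 UMIs) at 57.6%. The granins with UMIs there and PCSK1 thus stood at a few percent of their level in FEV-positive cells, where free RNA in the droplets is not told apart from expression, while CPE and PAM were well above that share. With a UMI counted at full depth, CHGB was in 42.3% of these 78 cells and in 97.3% of FEV-positive cells.

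Across single cells, most pairs of the 10 genes were nearly unrelated. In cells of 5000 to under 10000 UMIs thinned to 5000, the 45 pairs had a median Spearman's rho of 0.02 in the WT-labelled library and 0.03 in the FKO-labelled library, over 1252 and 4056 cells of 1 library each. A rho of at least 0.2 was reached by 0 and 1 of the 45 pairs, against 0.117% and 0.104% of all 3686970 pairs among the 10 genes and those with at least 50 CPM in both libraries. CHGA, PAM, PCSK2 and SCG5 are below that level, and of the 15 pairs of the other 6 members 0 and 1 reached 0.2. Of the 45 pairs, 27 had a rho above 0 in both libraries, against 32.6% of all pairs of genes. By the lower rho of the libraries the highest were CHGB with PCSK1 (0.19 and 0.22), SCG2 with PCSK1 (0.18 and 0.17) and SCG2 with VGF (0.17 and 0.19). In FEV-positive cells alone CHGB with PCSK1 had 0.18 and 0.14, and SCG2 with VGF 0.16 and 0.17. Over all cells of this depth, CHGB with SCG2 had 0.18 in the WT-labelled library but 0.02 in the FKO-labelled one. With a mitochondrial limit of 20%, CHGB with PCSK1 had 0.22 and 0.22, and SCG2 with VGF 0.23 and 0.22. At that limit SCG2 with PCSK1 had 0.20 and 0.18, so the count of pairs at 0.2 in the WT-labelled library depends on this limit.

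In deeper cells 3 of the genes varied together. In cells of 10000 to under 20000 UMIs thinned to 10000, 3740 labelled WT and 1277 labelled FKO, SCG2 and VGF had a rho of 0.47 and 0.52, SCG2 and PCSK1 one of 0.37 and 0.44, and VGF and PCSK1 one of 0.28 and 0.40. A rho of at least 0.2 was reached by 3 of the 45 pairs in the WT-labelled library and by 5 in the FKO-labelled one, where CHGB with PCSK1 and SCG2 with SCG3 (0.20) were added, against 0.16% and 0.559% of all pairs of genes. The 3 pairs named first reached it in both libraries, against 0.121% of all pairs. In FEV-positive cells alone the same 3 pairs had 0.47 and 0.49, 0.37 and 0.40, and 0.27 and 0.38. SCG2 with SCG3 fell below 0.2 in FEV-positive cells of the FKO-labelled library, to 0.11. CHGB was related to PCSK1 (0.19 and 0.34, or 0.18 and 0.24 in FEV-positive cells) but hardly to SCG2 (0.07 and 0.10) or VGF (-0.10 and -0.02), and CHGA had -0.01 and 0.11 with VGF and -0.02 and 0.05 with PCSK1.

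**Figure D4:**
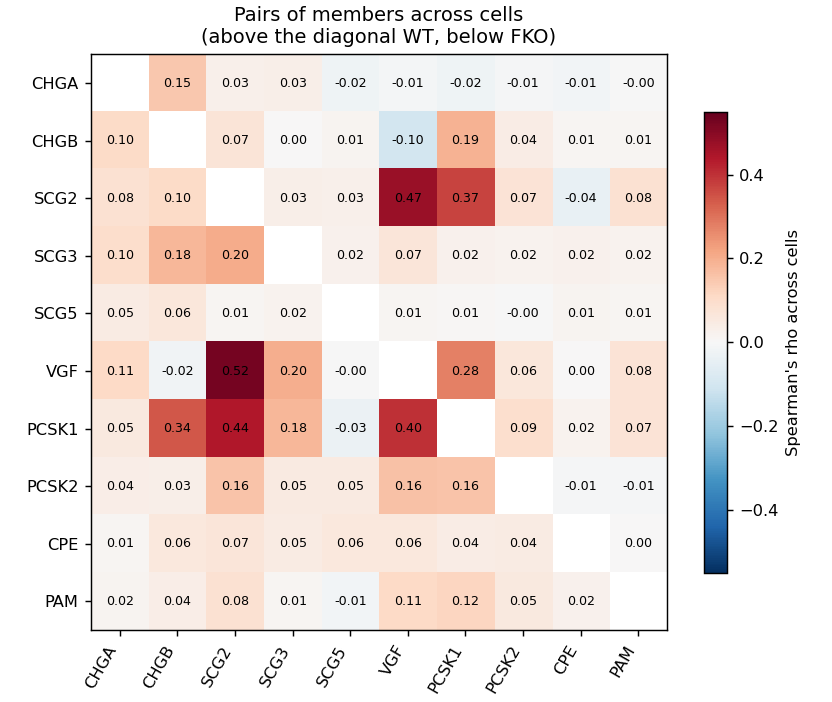
Spearman's rho between pairs of the 10 genes across cells of 10000 to under 20000 UMIs thinned to 10000, with the WT-labelled library above the diagonal (3740 cells) and the FKO-labelled library below it (1277 cells). The pairs among SCG2, VGF and PCSK1 run from 0.28 to 0.52 over both libraries, CHGB with PCSK1 reaches 0.34 in the FKO-labelled library, and CPE and SCG5 are near 0 with all others.

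The size of this relation is seen in the cells at the ends of the VGF range, which were looked at after the correlations had been seen. In the WT-labelled library, 541 of the deeper cells had no VGF UMI and 391 had at least 8. The mean SCG2 count was 2.43 UMIs in the former and 10.5 in the latter, and the mean PCSK1 count 1.53 and 4.44. In the FKO-labelled library, 309 cells had no VGF UMI and 132 had at least 7, with means of 1.96 and 11.1 for SCG2 and 1.95 and 7.52 for PCSK1.

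Serotonergic markers did not follow VGF to this extent in either library, nor did CHGB. FEV had a mean of 15.6 UMIs in the cells without VGF and 15.5 in those rich in VGF in the WT-labelled library, and of 6.75 and 7.14 in the FKO-labelled library. TPH2 had 1.81 and 1.74, and 1.17 and 1.59. DDC had 2.69 and 2.40, and 1.68 and 2.23, and GATA3 had 6.08 and 4.95, and 6.27 and 5.25. In the FKO-labelled library an FEV UMI was in 80.9% of the cells without VGF and 93.9% of those rich in it. The neuronal marker STMN2 had 42.3 and 42.5, and 40.4 and 57.1. The part of other cell types in these ends was not tested. CHGB was lower in the cells rich in VGF, with 11.9 and 7.61 UMIs in the WT-labelled library and 17.2 and 12.9 in the FKO-labelled library. CPE had 3.14 and 3.17, and 3.31 and 3.71. The median depth before thinning was 12021 and 14677 UMIs in the WT-labelled library and 12905 and 12784.5 in the FKO-labelled library.

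**Figure D5:**
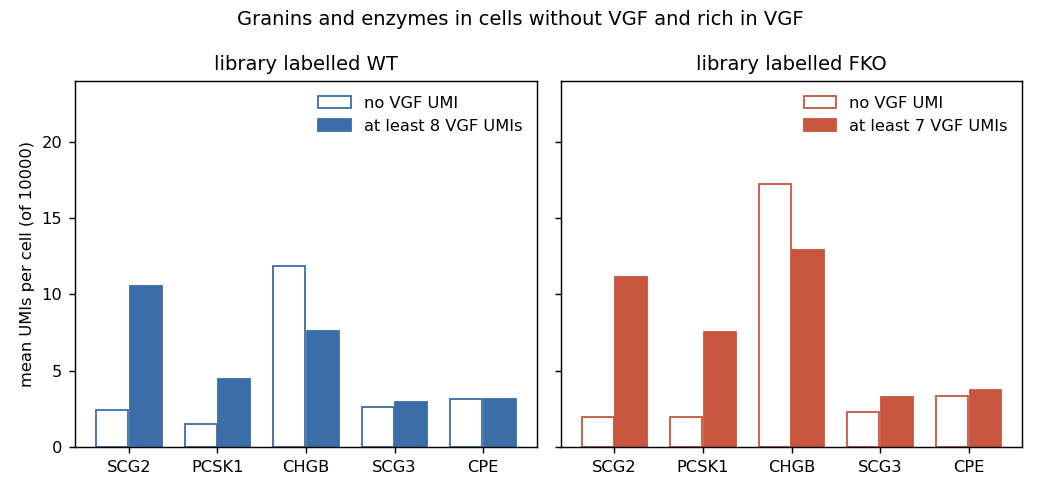
Mean UMIs per cell, of 10000, of 5 genes in cells with no VGF UMI (open bars) and in cells rich in VGF (filled bars), in the WT-labelled library (541 and 391 cells) and the FKO-labelled library (309 and 132 cells), without error bars since cells of 1 library are not replicates. SCG2 and PCSK1 are higher and CHGB is lower in cells rich in VGF, and SCG3 (2.60 and 2.94, and 2.26 and 3.27) and CPE differ less.

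The genes most like each member were ranked by the lower rho of the 2 libraries. In cells of 5000 to under 10000 UMIs the nearest to CHGB were the synaptic vesicle calcium sensor SYT1 (0.38 and 0.39), the co-chaperone DNAJC12 (0.34 and 0.34), which serves the aromatic amino acid hydroxylases, and GNAS (0.29 and 0.46). The GNAS locus also encodes a granin-like protein, which 3' counts do not separate. CHGB was related to FEV with 0.25 and 0.30 and to DDC, the enzyme that completes serotonin synthesis, with 0.28 and 0.26, and it was lowest with NR2F1 (-0.25 and -0.33).

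At this depth SCG2 was nearest to STMN4 (0.20 and 0.20), VGF, after SCG2, to BEX1 (0.15 and 0.15) and TMSB10 (0.12 and 0.16), and PCSK1 to GNAS (0.19 and 0.24).

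In the deeper cells the nearest to CHGB were SYT1 (0.46 and 0.62), CXCR4 (0.35 and 0.35) and DNAJC12 (0.34 and 0.52). SYT1 was also nearest to CHGA, though weakly, at 0.13 and 0.08 in the shallower and 0.15 and 0.13 in the deeper cells. In the latter SCG2 was nearest to VGF, BEX1 (0.41 and 0.40) and PCSK1, and VGF to SCG2, BEX1 (0.41 and 0.42) and TMSB4X (0.35 and 0.43). PCSK1 was nearest to SCG2, GNAS (0.31 and 0.43) and VGF. CHGA, SCG3, SCG5, PCSK2, CPE and PAM had no gene with a rho above 0.13 in both libraries, at either depth, and most had few UMIs per cell.

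The cells at the ends of the CHGB range differed in serotonergic markers and also in the neuronal marker STMN2. In the deeper cells of the WT-labelled library, cells with at most 2 CHGB UMIs (485) had a mean of 10.1 FEV, 1.13 TPH2 and 1.40 DDC UMIs, and cells with at least 22 (401) had 18.5, 3.07 and 3.50. In the FKO-labelled library, cells with at most 2 (150) had 1.65, 0.24 and 0.327, with an FEV UMI in 50% of them, and cells with at least 40 (131) had 9.64, 2.30 and 3.05. The mean of VGF was 3.56 and 2.20 UMIs at the low and high ends in the WT-labelled library and 1.70 and 1.69 in the FKO-labelled library.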

How the data were processed

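The deposited values are raw UMI counts for every gene in every barcode, made by the authors from 10x Genomics 3' (v3) libraries, with no normalization. The file headers name Cell Ranger 7.1.0, the submitters' processing notes Cell Ranger 7.0 and GRCh38. Whether strand was used in counting is not given in the sources used here, and SCG3, SCG5 and PCSK1 overlap antisense genes in GENCODE release 29.

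Barcodes of under 1000 UMIs, under 500 genes or over 10% mitochondrial UMIs were left out, as were the highest Scrublet scores (scanpy 1.11.5) at 0.8% per 1000 barcodes, which marked 977 barcodes in the WT-labelled library and 620 in the FKO-labelled one. The libraries shared 21 barcodes before filtering. CPM were pooled over kept cells and log2 ratios taken without a pseudocount, with exact Poisson, Clopper-Pearson and conditional intervals. FEV-positive levels were standardised to the depths of FEV-negative cells, and a depth group with under 10 cells of either kind was left out. Spearman's rho was computed with numpy 2.4.6 and scipy 1.17.1 on cells thinned to equal depth. The scripts were tested on simulated data. Genes named are the 10 members, the 2 highest and 2 lowest of each pathway list with at least 10 CPM, and the 3 nearest to each member by rho. NR2F1 as the lowest with CHGB and the markers at the ends of the ranges were chosen after their values were seen. The members and lists were chosen with earlier results of these data known. Alternatives changed the limits on cells, depth, scaling and the definition of FEV-positive cells. Bulk RNA sequencing of the study was not used here.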

Additional observations from a re-analysis of the deposited data

Results flagged for a closer look

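CPE differed in direction between the libraries when FEV-positive cells were set against FEV-negative cells. Its log2 ratio was -0.29 in the WT-labelled library, with the same sign in both depth groups (-0.36 and -0.17), and 0.23 in the FKO-labelled library, again with 1 sign in both depth groups (0.09 and 0.32). The difference was not tested. Without cells holding UMIs of collagen or cycling genes the ratio in the FKO-labelled library was 0.022.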

How the results depend on the processing

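With 1 library per label there is no spread between replicates, and no paired analysis was possible because each group has 1 sample. Of the 9 genes with at least 10 CPM, 7 lay below the median of all genes in the ratio of FKO over WT, and 7 or 8 did so under every alternative tried, which included leaving out the barcodes shared by the libraries, added after the data had been seen. The number higher in FEV-positive cells of both libraries was 7 under every alternative tried. The ratio of SCG2 turned to 0.10 in cells of 5000 to under 10000 UMIs thinned to 5000. Taking off the median of all genes turned the ratios of CPE to -0.39, PAM to -0.31 and SCG3 to -0.27, and leaving mitochondrial and ribosomal protein genes out of the total turned that of CPE to -0.023. The FEV ratio of SCG5 in the WT-labelled library was -0.13 with a UMI minimum of 2000. Relative to the median of all genes, CHGB ranged from 0.58 to 1.04, PCSK1 from -0.0040 to 0.61 and VGF from -1.21 to -0.51. At 5000 UMIs per cell 6 of 10 genes had a UMI in at least 50% of cells of both libraries, and at 2000 UMIs 1 did, which is a matter of depth. Of the 45 pairs of members, 28 to 31 had a rho above 0 in both libraries under the alternatives, against 27 as reported. A rho of at least 0.2 in both libraries was reached by 0 pairs in the main cells. It was reached by 2 with a mitochondrial limit of 20%, by 1 with Pearson's r and by 3 in the deeper cells. The nearest genes and the ends of the VGF and CHGB ranges in the deeper cells, and the deeper FEV-positive cells, were likewise chosen with the data in view.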
